A study of Homo sapiens with 12 samples.

Results

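The genes described here are those of the translation initiation factors and their near relatives, with 3 non-coding RNA genes whose symbols fall under the same rule. They were taken as every row of the deposited count table whose gene symbol begins with EIF and a digit, leaving out the 5 symbols that begin with EIF2AK and the 76 symbols that end in P and digits, which are pseudogenes and the 3 eIF4E-binding protein genes. Of 133 such symbols 52 remained, among 60612 named rows, and 42 of them had enough reads to be tested alongside 11803 genes in all. The values come from CAMA-1, an established luminal breast cancer cell line that carries the oestrogen receptor. Cells were given DMSO as solvent control, 100 nM abemaciclib, which inhibits CDK4/6, 5 nM fulvestrant, which degrades the oestrogen receptor, or both drugs (combination, doses not restated in the labels), with 3 libraries labelled as biological replicates in each of the 4 groups and no treatment time in the labels. All 12 libraries came from the 1 line, and RNA was read from its 3′ ends, so that counts follow transcript number more than transcript length. In bulk RNA of this kind, fewer cells of a type and less RNA per cell cannot be told apart, and each value is a share of the library.

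Initiation brings a ribosome to the start codon of a messenger RNA. The eIF2 complex carries the initiator tRNA and is recharged by eIF2B, the large eIF3 complex organises the small ribosomal subunit, and the eIF4 proteins bind the cap and unwind the leader, while eIF1, eIF1A, eIF5 and eIF5B act at start codon choice and subunit joining. Growth signals through mTORC1 act on this step by way of the eIF4E-binding proteins, and stress kinases act on it by phosphorylating eIF2.

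Upstream sequences are shown for 3 loci whose RNA is described below, because the deposited counts bear on how these genes moved together or apart. They are from RefSeq on GRCh38.p14, written 5′ to 3′. The first is the 250 bases before the start site of EIF4E, which encodes the cap-binding protein, at chr4:98929134-98929383 on the minus strand, with each CACGTG (the E-box motif) in capitals. The next is the 250 bases before EIF1AX, which encodes eIF1A, at chrX:20141839-20142088 on the minus strand. The last is the 201 bases between the RefSeq start site of EIF3J-DT, a long non-coding RNA, and EIF3J, which encodes a loosely held eIF3 subunit, at chr15:44536924-44537124 on the plus strand. The last 2 hold none of the motifs searched and are in lower case throughout.
EIF4E: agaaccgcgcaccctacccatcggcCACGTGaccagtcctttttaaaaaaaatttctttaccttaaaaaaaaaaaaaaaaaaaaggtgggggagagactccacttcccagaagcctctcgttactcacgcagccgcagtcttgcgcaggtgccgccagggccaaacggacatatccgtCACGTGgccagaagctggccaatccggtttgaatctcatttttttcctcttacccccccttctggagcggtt
EIF1AX: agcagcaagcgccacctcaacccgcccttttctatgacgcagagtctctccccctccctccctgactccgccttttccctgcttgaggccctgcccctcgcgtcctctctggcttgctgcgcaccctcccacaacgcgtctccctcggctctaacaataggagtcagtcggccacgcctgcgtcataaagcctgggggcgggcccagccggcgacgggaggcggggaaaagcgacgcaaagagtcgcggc
EIF3J and EIF3J-DT: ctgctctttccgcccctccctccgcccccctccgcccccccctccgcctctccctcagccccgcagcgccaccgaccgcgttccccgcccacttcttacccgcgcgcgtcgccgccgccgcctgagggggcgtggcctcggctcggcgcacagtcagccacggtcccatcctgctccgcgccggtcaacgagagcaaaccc

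RefSeq gave 62 upstream windows for 45 of the 52 genes. CACGTG stood in 10 of the 62 windows (16.1%) and in 6.3% of all 35116 windows of the same length. CCGGAAG, an ETS factor motif, stood in 11 windows (17.7%, against 8.5% of all), and AAGATGG, a YY1 motif, in 5 (8.1%, against 3.7%). Some genes have more than 1 window. The CACGTG windows came from 10 of the 45 genes, the CCGGAAG windows from 9, and the AAGATGG windows from only 2, EIF5 and EIF5A. Neither TTTCCCGC nor TTTGGCGC, the E2F motif forms searched, was found in any of the 62 windows (1.9% of all windows held one), and the oestrogen response element (GGTCA, 3 bases, TGACC) was found in none (0.04% of all). Both strands were searched, and these matches describe letters only. The window of EIF4E held 2 copies of CACGTG. The start sites of EIF3J and EIF3J-DT lie 224 or 247 bases apart, according to the EIF3J-DT transcript. The 201 bases printed end where the first EIF3J exon of GENCODE begins and are 76.1% G and C, and the EIF3J-DT gene of GENCODE reaches into them.

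Each library held 3299119 to 5164667 counts. The 8 luminal epithelial markers were present in every library, GATA3 at 2470 CPM (counts scaled to a common library total) or more and ESR1 at 76.3 CPM or more, while of 6 markers of other cell types COL1A2, CD3E and PECAM1 had no read, PTPRC had 2 reads in all, VIM was at 0.594 to 2.43 CPM and COL1A1 at 14.2 to 25.9 CPM. Replicates correlated at r = 0.97 or more across genes on the log2 scale, and the loosest group was fulvestrant, whose replicate 3 is given apart where it decides a value. Fulvestrant replicate 3 correlated at 0.9783 and 0.9703 with fulvestrant replicates 1 and 2, and at 0.9757 with combination replicate 1. Its counts differed less from combination replicate 1 (chi-square per degree of freedom 4.641) than from those 2 fulvestrant libraries (9.718 and 15.302). Fulvestrant replicate 1 likewise differed less from combination replicates 2 and 3 (5.661 and 5.114) than from fulvestrant replicate 3, but least from fulvestrant replicate 2 (4.229). The highest r between groups was that of fulvestrant replicate 1 and combination replicate 2 (0.9763). The genes described here took 0.902% ± 0.00712 of all counts in DMSO (SD, n = 3), 0.787% ± 0.00261 with abemaciclib, 0.677% ± 0.0187 with fulvestrant and 0.677% ± 0.0183 with the combination. Ribosomal protein genes took 9.11%, 7.12%, 5.07% and 4.87% of counts in the same order. The mean level was highest in DMSO for 29 of the 42 tested genes (69%, against 36.6% of all genes tested) and lowest in the combination for 22 (52.4%, against 24.8%). Mitochondrially encoded transcripts took 11.97% to 12.55% of counts in DMSO libraries and 15.6% to 20.59% in treated libraries, and with them left out 15, 28 and 33 of the 42 genes were called against DMSO, the same genes as with them kept.

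**Figure D1:**
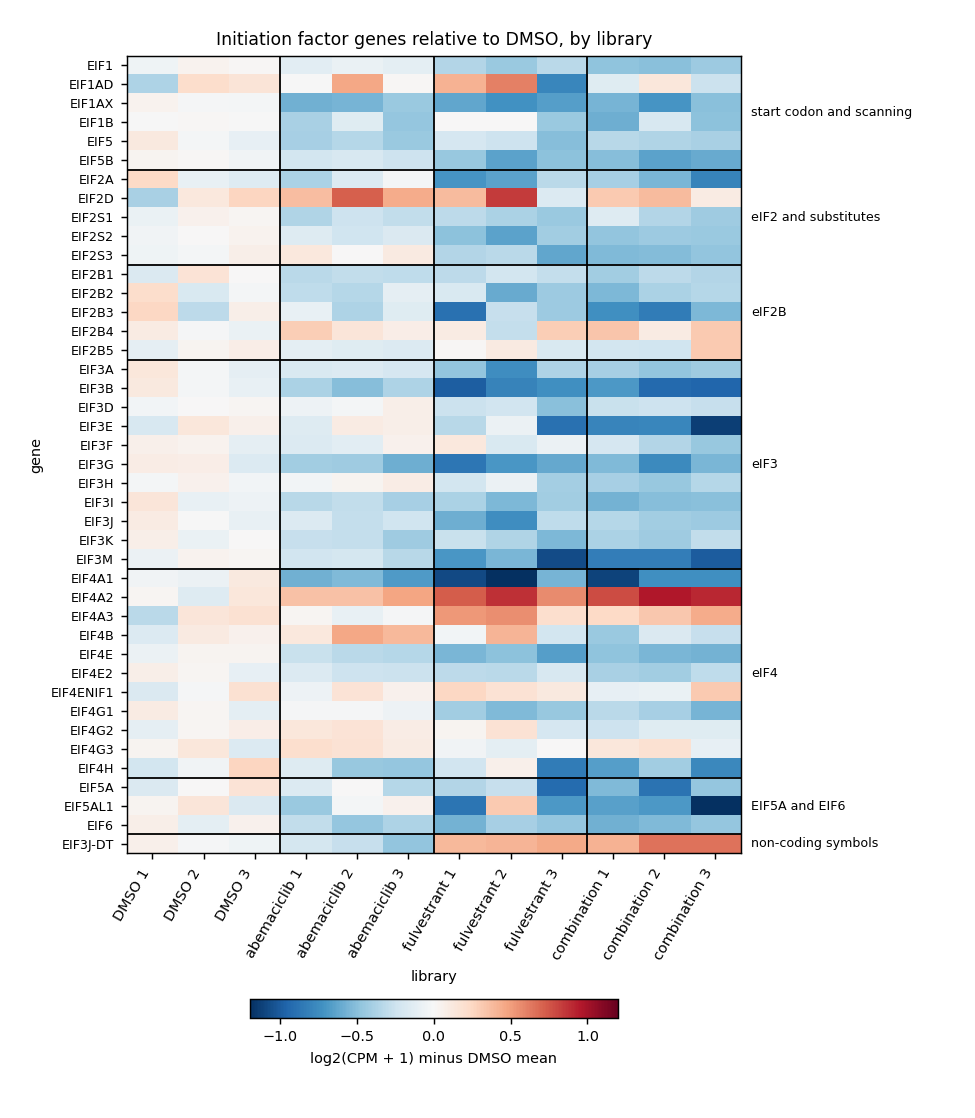
Rows are the 42 tested genes grouped by role, columns the 12 libraries, and colour is log2(CPM + 1) minus the DMSO mean of that gene. Blue fills most of the fulvestrant and combination columns, where 25 and 30 genes were called lower, and EIF4A2 and EIF3J-DT stand out in red there.

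Against DMSO, more initiation factor genes were called lower than higher with each treatment. A gene was called when the adjusted p of edgeR's quasi-likelihood test, with Benjamini-Hochberg adjustment over all 11803 genes, was under 0.05. With abemaciclib 14 of the 42 genes were lower and 1 was higher, where 20.7% of all genes were called lower and 20.5% higher. With fulvestrant 25 were lower and 3 higher (25.7% and 25.3% of all genes), and with the combination 30 were lower and 3 higher (27.5% and 27.7%). The share called lower was therefore 33.3%, 59.5% and 71.4% of the tested genes. The median log2 fold change of the 42 genes was −0.19, −0.38 and −0.42, while that of all genes tested was 0.00, 0.01 and 0.01. These 3 comparisons share the DMSO libraries.

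**Figure D2:**
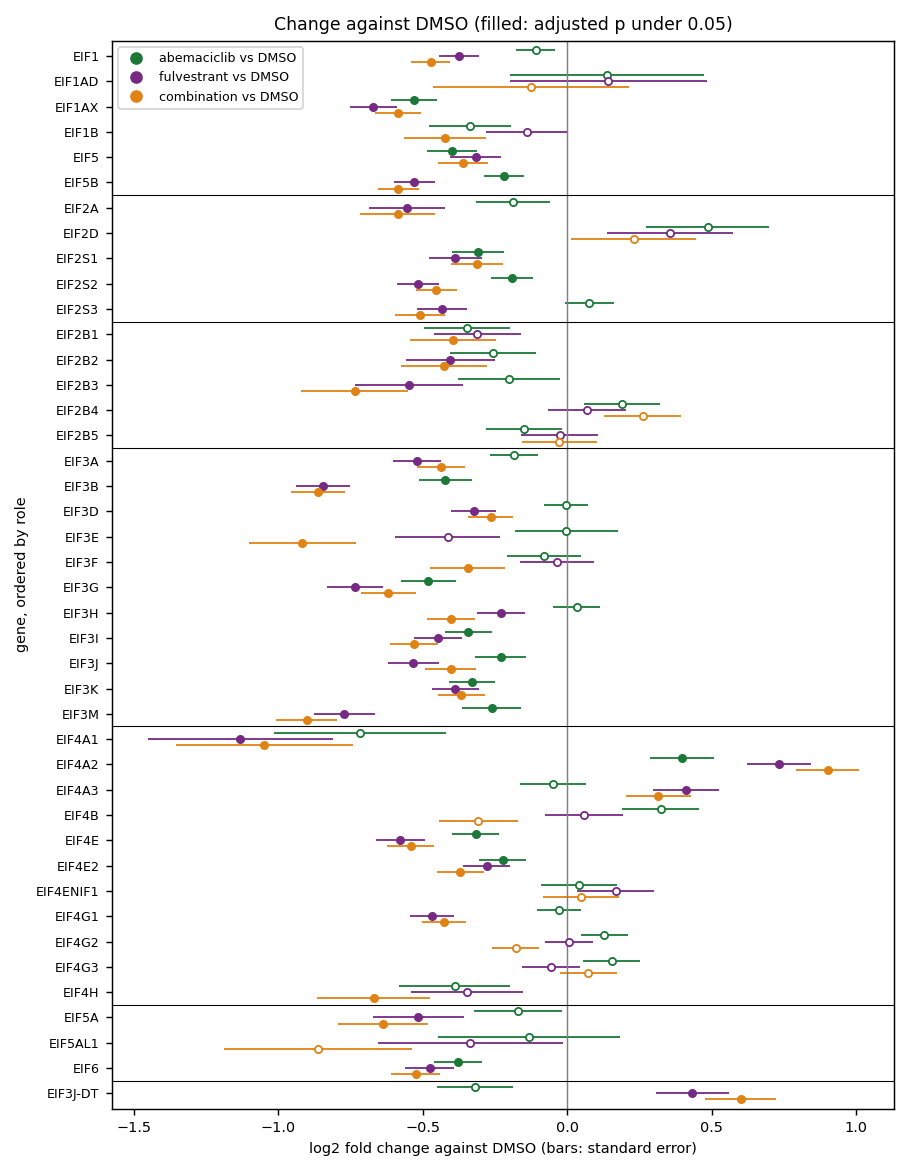
Points are log2 fold changes against DMSO for the 42 tested genes, bars are standard errors, and filled points have an adjusted p under 0.05. All 11 eIF3 genes have filled points to the left of 0 for the combination, and EIF4A2 lies to the right of 0 in all 3 comparisons.

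The 14 genes lower in all 3 comparisons were EIF1AX, EIF2S1, EIF2S2, EIF3B, EIF3G, EIF3I, EIF3J, EIF3K, EIF3M, EIF4E, EIF4E2, EIF5, EIF5B and EIF6. A further 11 were lower with fulvestrant and with the combination: EIF1, EIF2A, EIF2B2, EIF2B3, EIF2S3, EIF3A, EIF3D, EIF3H, EIF4A1, EIF4G1 and EIF5A. EIF1B, EIF2B1, EIF3E, EIF3F and EIF4H were called lower with the combination alone among the 3, and a difference between treatments was not shown by that alone. EIF4A2 was higher in all 3, and EIF4A3 and EIF3J-DT were higher with fulvestrant and the combination. The other 9 tested genes (EIF1AD, EIF2B4, EIF2B5, EIF2D, EIF4B, EIF4ENIF1, EIF4G2, EIF4G3 and EIF5AL1) were called in none of the 3. Some of these calls rested on single libraries, and some on the scaling or the filter. With abemaciclib, upper-quartile scaling lost EIF2S2, EIF3J and EIF3M, and leaving low counts unfiltered lost EIF2S2, EIF3M and EIF4E2. The adjusted p of edgeR or DESeq2 rose above 0.05 without at least 1 library for EIF5B, EIF4E2, EIF4A2, EIF3M, EIF3J and EIF2S2 with abemaciclib (highest 0.0618, 0.125, 0.0552, 0.145, 0.139 and 0.137 over 21 alternatives). The same held for EIF2B3, EIF3H, EIF2B2 and EIF5A with fulvestrant (highest 0.128, 0.121, 0.142 and 0.0572), and for EIF1B, EIF4H, EIF3F, EIF2B1, EIF2B2 and EIF4A3 with the combination (0.0715, 0.0513, 0.11, 0.147, 0.0958 and 0.138). Conversely, at least 1 alternative called EIF2D and EIF4B higher and EIF1B, EIF3A, EIF2B1, EIF3J-DT and EIF4A1 lower with abemaciclib. With fulvestrant, at least 1 called EIF2D and EIF1AD higher and EIF4H, EIF3E, EIF5AL1 and EIF2B1 lower. With the combination, at least 1 called EIF5AL1, EIF4G2 and EIF4B lower. EIF4E3, too low to be tested in the main fit, was called with the combination when low counts were not filtered.

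Among the genes grouped as start codon and scanning factors, 3, 4 and 5 of 6 tested were lower with abemaciclib, fulvestrant and the combination, and none was higher. The group takes in EIF1AD, whose part in start codon choice was not examined here and which was called in none of these comparisons. The shares lower were 50%, 66.7% and 83.3%, against 20.7%, 25.7% and 27.5% of all genes. EIF1AX (chromosome X, 20124525 to 20141838, minus strand), whose protein promotes scanning, was at 189.4, 182.4 and 180.5 CPM in the DMSO libraries. It was at 122.8, 124.5 and 135.2 CPM with abemaciclib, at 119.3, 111.1 and 115.8 CPM with fulvestrant and at 125.1, 112.3 and 130.1 CPM with the combination. Every treated library lay below every DMSO library, the combination overlapped both single drugs, and every abemaciclib library lay above the fulvestrant libraries. Its log2 fold change against DMSO was −0.53 ± 0.08 (SE) with abemaciclib (edgeR adjusted p = 5.95e-06), −0.67 ± 0.08 with fulvestrant (8.81e-08) and −0.59 ± 0.08 with the combination (6.02e-07). EIF5, the eIF2 GTPase activator, was also lower with each treatment, by 0.40, 0.32 and 0.36 on the log2 scale. EIF5B, which joins the subunits, fell from 1104 ± 28.5 CPM to 948.6 ± 17.2, 764.9 ± 52.5 and 736.7 ± 35.1 CPM (SD, n = 3). EIF1, which guards start codon choice, went from 767.6 CPM to 711.8 with abemaciclib, where it was not called (edgeR adjusted p = 0.206), and was lower at 592 and 553 CPM in the other groups. Its paralogue EIF1B was lower with the combination (log2 fold change −0.42 ± 0.14).

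Of the eIF2 subunits and substitute factors, 2, 4 and 4 of 5 tested genes were lower (40%, 80% and 80%, against 20.7%, 25.7% and 27.5% of all genes). EIF2S2, the beta subunit, was at 585.6, 604.9 and 622.2 CPM in DMSO and at 541.6, 510.8 and 534.4 CPM with abemaciclib. It was at 428.9, 386.7 and 450.8 CPM with fulvestrant and at 434.3, 446.4 and 443.9 CPM with the combination, so that both fulvestrant-treated groups lay below the abemaciclib libraries, which lay below DMSO. The abemaciclib call (−0.19 ± 0.07, edgeR adjusted p = 0.0336) was lost when any 1 of 6 libraries was left out, DMSO 2 and 3, abemaciclib 1, 2 and 3, and combination 2. It was also lost with upper-quartile scaling and with no filter on low counts. EIF2S3, the gamma subunit that binds the initiator tRNA, was at 157.8 ± 7.25 CPM in DMSO and 166.5 ± 7.6 with abemaciclib, and was lower at 117 ± 13.2 with fulvestrant and 110.8 ± 2.46 with the combination. EIF2S1, the alpha subunit phosphorylated by stress kinases, was lower with each treatment (−0.31, −0.39 and −0.31). EIF2D, a factor that can deliver tRNA without GTP, had fitted changes of 0.49, 0.35 and 0.23, and none passed the test. Without fulvestrant replicate 3, EIF2D was called higher with fulvestrant (0.59, edgeR adjusted p = 0.00461) and with abemaciclib (0.48, adjusted p = 0.00986), and the abemaciclib call was made in 5 of 21 alternatives.

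Of the eIF2B subunits, 0, 2 and 3 of 5 were lower and none was higher. The shares lower were 0%, 40% and 60%, against 20.7%, 25.7% and 27.5% of all genes. EIF2B3, the gamma subunit of the exchange factor, was lower with fulvestrant (−0.55 ± 0.19) and with the combination (−0.74 ± 0.18, edgeR adjusted p = 0.00138). EIF2B4 and EIF2B5, the delta and epsilon subunits, passed no test against DMSO. The beta subunit EIF2B2 and alpha subunit EIF2B1 were at 31.5 CPM or less in every library.

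Of the eIF3 genes, 6, 9 and 11 of 11 tested were lower and none was higher. The shares lower were 54.5%, 81.8% and 100%, against 20.7%, 25.7% and 27.5% of all genes. EIF3B (chromosome 7, 2354086 to 2380745, plus strand), a core scaffold subunit, was at 184, 166.3 and 159.2 CPM in DMSO. It was at 129.9, 118.8 and 130.9 CPM with abemaciclib, at 85, 96.7 and 101.4 CPM with fulvestrant and at 104.7, 88.3 and 87.2 CPM with the combination. The 3 levels did not overlap between DMSO, abemaciclib and the fulvestrant-treated groups, and the latter overlapped each other. The log2 fold changes were −0.42 ± 0.09, −0.84 ± 0.09 and −0.86 ± 0.09 (edgeR adjusted p = 0.000485, 1.73e-08 and 8.14e-09). EIF3M (chromosome 11, 32583798 to 32606264, plus strand) fell from 109.2, 118 and 116.8 CPM in DMSO to 70.4, 78.1 and 54 CPM with fulvestrant and 64, 63.9 and 56.7 CPM with the combination (−0.77 ± 0.11 and −0.90 ± 0.11). With abemaciclib EIF3M was at 97.4, 98.9 and 90.7 CPM, below every DMSO library. Its adjusted p of 0.0413 in edgeR crossed 0.05 without any 1 of 8 libraries, with upper-quartile scaling, with no filter on low counts and in DESeq2.

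EIF3G, an RNA-binding subunit, was lower by 0.48, 0.73 and 0.62 on the log2 scale, and EIF3I, EIF3J and EIF3K were also lower with each treatment. EIF3A, the largest subunit, and EIF3D, which can bind caps, were lower with fulvestrant and the combination and not called with abemaciclib. EIF3E stood apart in its spread. It was at 116.1, 145.6 and 138.3 CPM in DMSO, 119.2, 142.4 and 139 CPM with abemaciclib, 105.3, 126.4 and 71.1 CPM with fulvestrant, and 76.3, 76.7 and 60 CPM with the combination. The combination libraries lay below all DMSO and abemaciclib libraries and overlapped fulvestrant only through replicate 3. Its log2 fold change was −0.92 ± 0.19 against DMSO and −0.91 ± 0.19 against abemaciclib (edgeR adjusted p = 0.00143 and 0.00291).

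The eIF4 genes were mixed, with 2, 4 and 5 of 11 tested genes lower and 1, 2 and 2 higher. Lower were thus 18.2%, 36.4% and 45.5%, against 20.7%, 25.7% and 27.5% of all genes. Higher were 9.09%, 18.2% and 18.2%, against 20.5%, 25.3% and 27.7%. EIF4A2 (chromosome 3, 186783205 to 186789897, plus strand), a helicase paralogue of eIF4A, was at 41.9, 36.9 and 45.5 CPM in DMSO. It was at 52.8, 53 and 57.6 CPM with abemaciclib, at 68.7, 76.4 and 61.5 CPM with fulvestrant and at 71.7, 81.3 and 78.3 CPM with the combination. The groups rose without overlap from DMSO to abemaciclib to fulvestrant, and fulvestrant overlapped the combination. The log2 fold changes were 0.40 ± 0.11, 0.73 ± 0.11 and 0.90 ± 0.11 (edgeR adjusted p = 0.00559, 3.07e-06 and 6.64e-08), and the abemaciclib call was lost without DMSO replicate 2. EIF4A3, the paralogue of the exon junction complex, was higher with fulvestrant (0.41 ± 0.11) and the combination (0.31 ± 0.11). EIF4A1 was lower in the same comparisons (−1.13 ± 0.32 and −1.05 ± 0.31), but it had only 7 to 31 counts a library, and its last 500 exonic bases lie wholly within the annotated readthrough gene SENP3-EIF4A1, so its level is uncertain.

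EIF4E (chromosome 4, 98879276 to 98929133, minus strand), whose upstream sequence is printed above, was at 127.3, 137.6 and 137.5 CPM in DMSO and 111.2, 106.6 and 105.4 CPM with abemaciclib. It was at 91.2, 94.8 and 84.3 CPM with fulvestrant and 95.8, 91.2 and 89.9 CPM with the combination. No treated library reached a DMSO library, and log2 fold changes were −0.32 ± 0.08, −0.58 ± 0.08 and −0.54 ± 0.08 (edgeR adjusted p = 0.00278, 1.6e-06 and 3e-06). EIF4E2, the 4EHP cap-binding paralogue, was lower by 0.22, 0.28 and 0.37, and EIF4E3 had too few reads. The scaffold EIF4G1 was lower with fulvestrant and the combination (−0.47 and −0.43), and its relatives EIF4G2 and EIF4G3 were not called against DMSO.

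EIF6, which keeps the large subunit from joining early, was lower with each treatment (−0.38, −0.48 and −0.53). EIF5A, which helps elongation and termination, was lower with fulvestrant and the combination (−0.52 and −0.64). EIF5AL1, a close copy of EIF5A, ranged from 66 to 199.4 CPM and passed no test. With the combination its log2 fold change was −0.86 ± 0.32 (edgeR adjusted p = 0.0507), and 8 of 21 alternatives called it lower, DESeq2 among them. Without fulvestrant replicate 2, EIF5AL1 was also called lower with fulvestrant (adjusted p = 0.0133). Reads of EIF5A and EIF5AL1 could be split between them.

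EIF3J and its divergent neighbour EIF3J-DT moved apart in the groups with fulvestrant. With abemaciclib alone both had negative fitted changes. These were −0.23 ± 0.09 for EIF3J (edgeR adjusted p = 0.0356, called lower) and −0.32 ± 0.13 for EIF3J-DT (0.054, not called). EIF3J-DT (chromosome 15, 44527257 to 44537046, minus strand) was at 28.2, 26.8 and 26 CPM in DMSO and 23.2, 22.1 and 19.2 CPM with abemaciclib. It was at 35.6, 36.1 and 37.4 CPM with fulvestrant and 36.3, 43 and 42.9 CPM with the combination, above every library without fulvestrant. EIF3J was at 576.1, 536.1 and 504.6 CPM in DMSO, 479.4, 439.9 and 457.1 CPM with abemaciclib, 359, 320.4 and 435.8 CPM with fulvestrant and 423.7, 401.5 and 396.7 CPM with the combination. EIF3J-DT was higher with fulvestrant (0.43 ± 0.13) and the combination (0.60 ± 0.12) where EIF3J was lower (−0.53 ± 0.09 and −0.40 ± 0.09; edgeR adjusted p = 0.0054, 0.000157, 1.18e-05 and 0.000322). Other genes cover part of the last 500 exonic bases of each on the opposite strand (56.6% for EIF3J-DT and 21.6% for EIF3J), and whether the counting used strand was not stated.

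**Figure D3:**
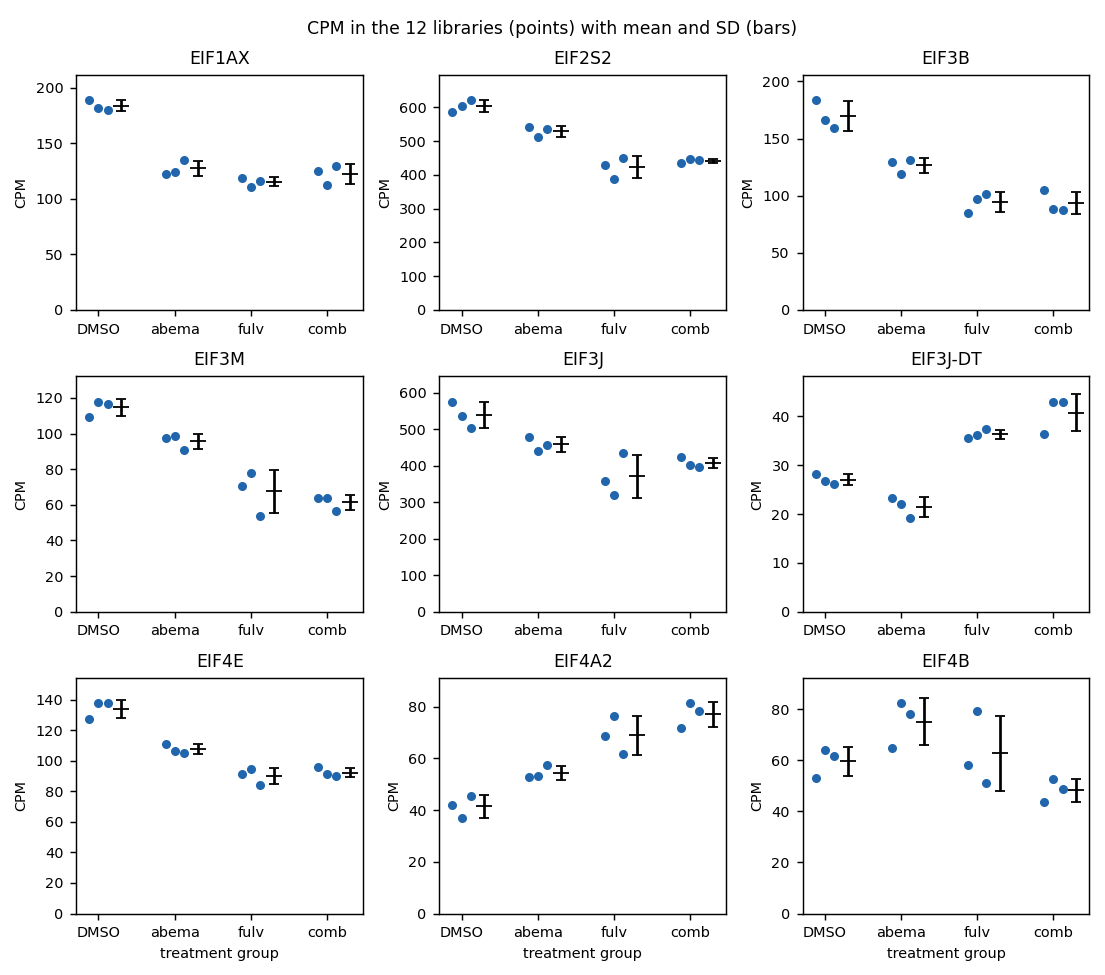
CPM in each of the 12 libraries (points, 3 a group, axes from 0) with mean and SD (bars) for 9 genes. EIF1AX, EIF2S2, EIF3B, EIF3M, EIF3J and EIF4E are lower in treated groups, EIF4A2 is higher, EIF3J-DT is higher only in groups with fulvestrant, and EIF4B is at 75.2 CPM with abemaciclib and 48.3 CPM with the combination.

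Adding fulvestrant to abemaciclib was followed by lower levels of 17 genes and higher levels of 3 (17.7% and 15.9% of all genes were called lower and higher). The median log2 fold change was −0.25, against 0.01 over all genes. The 3 higher genes were EIF3J-DT (0.92 ± 0.13), EIF4A2 (0.50 ± 0.11) and EIF4A3 (0.37 ± 0.11), and the lower genes included EIF3E, EIF3M (−0.64 ± 0.11), EIF2S3 (−0.59 ± 0.09) and EIF4G2 (−0.31 ± 0.08), the scaffold of cap-independent initiation. EIF4B, which stimulates the eIF4A helicase, was at 64.8, 82.3 and 78.3 CPM with abemaciclib and at 43.6, 52.5 and 48.9 CPM with the combination, without overlap (−0.63 ± 0.13, edgeR adjusted p = 0.000776). The EIF4A3 call was lost without abemaciclib replicate 2 or combination replicate 3 (highest adjusted p 0.0835 over the alternatives), and those of EIF2B3, EIF2A, EIF4E, EIF3A, EIF5A and EIF3D were each lost without at least 1 library (highest 0.111, 0.12, 0.123, 0.0826, 0.122 and 0.061).

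Adding abemaciclib to fulvestrant gave no call among the 42 genes in edgeR's test, where 0.297% of all genes were called higher and 1.63% lower. At an unadjusted p under 0.05 there were 5 genes in edgeR and 4 in DESeq2, which also called 0. The 5 were EIF4B, EIF3E, EIF3F, EIF4G2 and EIF3H, all with negative fitted changes. The 95% intervals of the 42 log2 differences lay between −1.17 and 0.79, and the lowest bound was that of EIF5AL1 (SE 0.33). Intervals of other genes were narrower, such as −0.131 to 0.202 for EIF4E and −0.194 to 0.084 for EIF5B. Differences within the interval of each gene remain possible. Without fulvestrant replicate 3, in which EIF3E and EIF4B were lowest of their group, 4 genes were called: EIF3E (−0.71), EIF4B (−0.50) and EIF4G2 (−0.28) lower and EIF3J (0.26) higher. The shares called over all genes rose as well without that library, to 3.34% lower and 1.53% higher.

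Compared directly, abemaciclib libraries had higher levels than fulvestrant libraries for 13 genes and lower levels for 3 (15.5% and 13.4% of all genes). The median was 0.18, against −0.01 over all genes. EIF2S3 (0.51 ± 0.09), EIF3M (0.51 ± 0.11), EIF4G1 (0.44 ± 0.08) and EIF3B (0.42 ± 0.09) were higher with abemaciclib, and EIF3J-DT (−0.75 ± 0.13), EIF4A3 (−0.46 ± 0.11) and EIF4A2 (−0.34 ± 0.11) were lower. The EIF4A2 call was lost without abemaciclib replicate 1 or 2 or fulvestrant replicate 2 (highest adjusted p 0.1 over the alternatives), and those of EIF2A, EIF4E, EIF3H and EIF3J were each lost without at least 1 library (highest 0.181, 0.0805, 0.0891 and 0.0718).

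**Figure D4:**
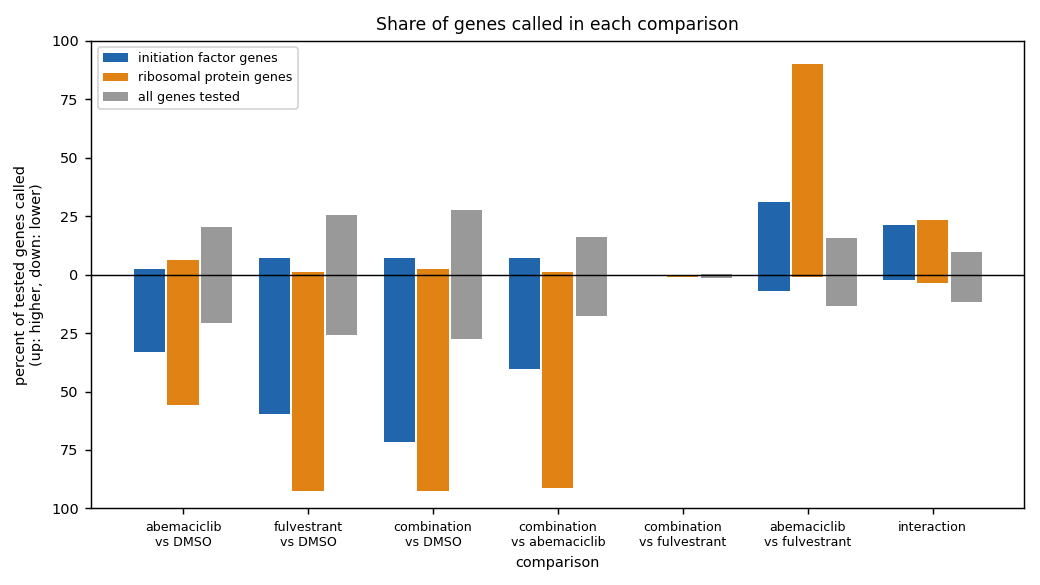
Bars give the percent of tested genes called higher (up) and lower (down) among the 42 initiation factor genes, the 81 tested ribosomal protein genes and all 11803 genes, in 7 comparisons. Initiation factor genes lie between all genes and ribosomal protein genes on the lower side against DMSO, at 33.3%, 59.5% and 71.4%.

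Whether abemaciclib changed these genes alike without and with fulvestrant was tested as the interaction of the drugs. The difference was positive for 9 genes and negative for 1 (9.49% of all genes were called higher and 11.6% lower in this test). With counts scaled by library totals alone the split over all genes was 13.8% higher and 8.64% lower, and 13 of the 42 genes were then called higher and 1 lower. That scaling moved the median of all genes by 0.11, and the median of the 42 genes lay 0.11 above that of all genes under either scaling. All 9 positive genes had been lower with abemaciclib alone and had fitted changes between −0.05 and 0.13 when it was added to fulvestrant. The 2 comparisons share no library, but the interaction uses those of both. EIF1AX changed by −0.53 without and 0.09 with fulvestrant (difference 0.62 ± 0.12, edgeR adjusted p = 0.000297), and EIF3G by −0.48 and 0.12 (0.60 ± 0.14, 0.00217). EIF4B had fitted changes of 0.32 without and −0.37 with fulvestrant (difference −0.69 ± 0.19, 0.0122). These 3 genes were called under all 20 alternatives, and the other 7 were not.

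**Figure D5:**
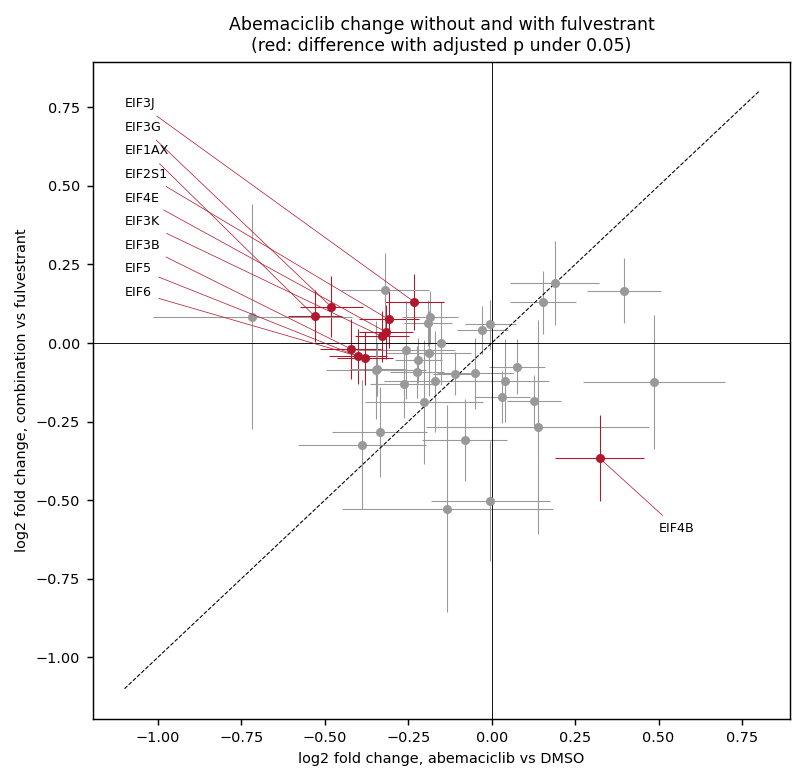
Each point is 1 of the 42 genes, with the log2 fold change of abemaciclib against DMSO on the x axis and of the combination against fulvestrant on the y axis, bars are standard errors, and the dashed line marks equal change. The 9 red points at the left lie near 0 on the y axis, and EIF4B lies to the lower right.

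Other genes of the pathway were taken from lists beside the initiation factors. Of 81 tested cytosolic ribosomal protein genes, 45, 75 and 75 were lower and 5, 1 and 2 higher with abemaciclib, fulvestrant and the combination, with median log2 fold changes of −0.25, −0.76 and −0.87. Of 19 initiation cofactors outside the EIF symbols, 6, 7 and 7 were lower and 1, 2 and 2 higher. Lower were 55.6%, 92.6% and 92.6% of the ribosomal protein genes and 31.6%, 36.8% and 36.8% of the cofactors. Of all genes 20.7%, 25.7% and 27.5% were lower. Higher were 5.26%, 10.5% and 10.5% of the cofactors, against 20.5%, 25.3% and 27.7% of all genes. ABCE1, which recycles ribosomes, fell from 121 CPM in DMSO to 96.1, 67.8 and 61.1 CPM, and the re-initiation factor DENR from 82.9 to 61.8, 46.6 and 48.7 CPM. MKNK2, a kinase of eIF4E, rose from 160 to 237, 313 and 352 CPM.

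EIF4EBP1, the repressor of eIF4E, fell from 83.4 CPM to 45.9, 54.3 and 38.6 CPM, and EIF4EBP2 was not called. Of 6 eIF2alpha kinases and phosphatase subunits, 3, 2 and 3 were higher and 0, 1 and 1 lower. Higher were thus 50%, 33.3% and 50%, against 20.5%, 25.3% and 27.7% of all genes. Lower were 0%, 16.7% and 16.7%, against 20.7%, 25.7% and 27.5%. The phosphatase subunit PPP1R15A rose from 10.8 to 22.3, 22.9 and 22.7 CPM. Of 14 tested genes of mTORC1 and its regulators, 3 were higher in each comparison and 2, 1 and 1 were lower, so that 21.4% were higher where 20.5%, 25.3% and 27.7% of all genes were. Lower were 14.3%, 7.14% and 7.14%, below the shares of all genes. The inhibitors DDIT4 (23.8 to 42.5, 81.6 and 81 CPM) and SESN2 (42.5 to 68.8, 75 and 89.5 CPM) rose and the activator RHEB (46.7 to 27.2, 29.3 and 27.2 CPM) fell in all 3. The inhibitor DEPTOR was also higher with abemaciclib and the combination, TSC2, another inhibitor, with fulvestrant, and the mTOR partner MLST8 was lower with abemaciclib. Of 8 tested elongation and termination factors, 2, 6 and 5 were lower and 2, 1 and 1 higher. That was 25%, 75% and 62.5% lower and 25%, 12.5% and 12.5% higher, so that with abemaciclib both shares were near those of all genes. The list of members known for a terminal oligopyrimidine tract held 4 genes, EIF3E, EIF3F, EIF3H and EIF4B. Of these, 0, 1 and 3 were lower (0%, 25% and 75%) and none was higher. Whether other members carry such a tract was not examined, so these counts hold for the 4 listed genes only.

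The 10 genes not tested were EIF1B-AS1, EIF4E3, EIF5A2, EIF4E1B, EIF2S3B, EIF3CL, EIF3C, EIF3L, EIF1AX-AS1 and EIF1AY, with at most 13 counts in any library. EIF3C and EIF3CL are near-identical copies, and reads shared between copies can be lost in counting. The last 500 exonic bases of EIF3L lie wholly within another annotated gene on its strand. Among tested genes, other genes on the same strand cover 42.2% of these bases in EIF6 and 25.8% in EIF1B, and genes on the opposite strand cover all of them in EIF2B1, EIF2B2 and EIF5B, so their values are less certain.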

How the data were processed

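RNA of CAMA-1 cells was sequenced from 3′ ends (QuantSeq 3′ FWD) in 12 libraries. Adapter trimming by the authors used BBDuk, alignment to hg38 used STAR, and reads were summed per gene with featureCounts 2.0.1 on a GENCODE annotation, per the labels and methods. Strand and overlap settings were not given in the sources used here. The deposited values are raw read counts, and 44 rows of the table named no gene and held 0 reads. Depth was 3299119 to 5164667 counts a library, so precision is limited for genes of few counts.

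The tests used edgeR 4.0.16 under R 4.3.3. Genes of low count were filtered (filterByExpr, minimum count 10, total 15), TMM factors applied, and 1 quasi-likelihood model fitted to all 4 groups without a block, with 7 contrasts and Benjamini-Hochberg adjustment over all 11803 genes. CPM here are counts relative to each library's TMM-scaled total. The method was tried on simulated counts with the same dispersion for every gene and with changes put into the abemaciclib group only. That setting is simpler than these data, so the trial does not show how well the calls hold here. The alternatives, whose effect is given at the end, were DESeq2 1.42.0, 3 other scalings, other filters, mitochondrial transcripts left out, only the compared groups, a replicate block and each library left out. The libraries are labelled as biological replicates, and p-values measure the spread between them. Replicate pairs differed by more than sampling noise (chi-square per degree of freedom 1.87 to 15.3, the highest for fulvestrant replicates 2 and 3).

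Genes with values per library were those called with a mean of 10 CPM or more in a compared group, up to 6 a comparison by size of change, with paralogues beside them. Members and lists were chosen with earlier results of these data known. Positions are from GENCODE on GRCh38 and upstream sequences from RefSeq.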

Additional observations from a re-analysis of the deposited data

Results flagged for a closer look

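The change made by abemaciclib differed with and without fulvestrant for 10 genes, by edgeR's quasi-likelihood test of the interaction with 3 libraries a group. The difference (with minus without fulvestrant, log2) was 0.62 for EIF1AX, 0.60 for EIF3G, 0.40 for EIF3B, 0.38 for EIF2S1, 0.36 for EIF3J, 0.36 for EIF5, 0.35 for EIF4E, 0.35 for EIF3K, 0.33 for EIF6 and -0.69 for EIF4B. DESeq2 called 4 of the 10, EIF1AX, EIF3G, EIF3K and EIF4B.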

How the results depend on the processing

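No median of the 42 genes reversed direction under any alternative that was run. Nor did any of the called genes of largest change, up to 6 a comparison. Fitted changes that were not called could change sign. For the combination against fulvestrant, leaving out fulvestrant replicate 3 moved EIF3B from -0.0186 to 0.038 and EIF4E from 0.0355 to -0.011. With counts scaled by library totals only, the median log2 fold change was -0.254 for abemaciclib against DMSO, -0.44 for fulvestrant against DMSO, -0.203 for the combination against abemaciclib, -0.006 for the combination against fulvestrant and 0.211 for the interaction; the median of all genes moved by 0.11 for the interaction. With no filter on low counts, 1 gene (EIF3E) was called for the combination against fulvestrant and the interaction median was 0.053. DESeq2 called 4 genes for the interaction. The causes were not tested.

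Leaving out each library in turn gave 10 to 19 genes called with abemaciclib against DMSO (lowest without DMSO replicate 2), 25 to 30 with fulvestrant, 29 to 36 with the combination, 15 to 21 for the combination against abemaciclib, 0 to 4 for the combination against fulvestrant (4 without fulvestrant replicate 3), 13 to 17 for abemaciclib against fulvestrant and 4 to 16 for the interaction (4 without abemaciclib replicate 3, 16 without fulvestrant replicate 3). In the same order the medians ran from -0.221 to -0.184, -0.393 to -0.319, -0.428 to -0.396, -0.255 to -0.205, -0.075 to -0.016, 0.139 to 0.22 and 0.073 to 0.142.

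Replicate numbers showed no clear pairing: deviations of same-numbered libraries correlated at -0.215 to 0.119 over 18 pairs, against -0.208 to 0.301 over 36 other pairs. With so few libraries a group, these ranges cannot exclude that libraries were handled in matched sets. With the replicate block, 18, 29, 35, 19, 0, 16 and 9 genes were called in the 7 comparisons. Depth limits genes such as EIF4A1, with 7 to 31 counts a library.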
